A study of Mus musculus with 4 samples.

Results

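The genes described here are 5 ion channel genes of vagal sensory neurons: Hcn2 and Hcn3, which encode hyperpolarization-activated cation channels, and Kcnk1, Kcnk2 and Kcnk3, which encode two-pore potassium leak channels. They were taken by name from an expression table of 17289 genes and are described across all 27 clusters of its cell annotation. All 5 were in the table and all 5 passed the filter on low values in each comparison below. The cells came from the jugular and nodose ganglia of mice aged 5 weeks, which hold the cell bodies of the sensory neurons of the vagus nerve. C57BL6 wild-type mice gave 2 libraries of unselected cells, called unsorted 1 and unsorted 2 here. The other 2 libraries, sorted 1 and sorted 2, came from mice that carry Slc17a6tm2(cre)Lowl and, on B6.Cg, the reporter allele Gt(ROSA)26Sortm14(CAG-tdTomato)Hze/J. In these mice Cre made from the Slc17a6 locus, the gene of the vesicular glutamate transporter Vglut2, switches on the red protein tdTomato, and cells with that label were collected by flow sorting. All animals were otherwise untreated as far as the labels say, and how many animals went into a library is not given. Because genotype and sort changed together they cannot be told apart, and p-values measure only the spread between libraries.

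HCN channels open when the membrane hyperpolarizes and carry a mixed sodium and potassium current that pulls a neuron back toward firing threshold, and cyclic AMP bound to the channel eases opening, more so for HCN2 than for HCN3. Two-pore potassium channels stay open at rest and set how negative the membrane is and how strongly it responds to small currents. Kcnk1 encodes TWIK-1, which gives little current on its own in many cells, Kcnk2 encodes TREK-1, which opens with stretch, warmth and lipids, and Kcnk3 encodes TASK-1, which closes in acid. Sensory neurons of the vagus carry signals from lung, heart, gut and throat, and leak and HCN currents are part of what makes some of them fire readily and others not.

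The table held 1825 cells: 1459 nodose neurons in 18 clusters (named NG), 245 jugular neurons in 6 clusters (JG), 51 satellite glia, 51 endothelial cells and 19 sympathetic neurons. The libraries held 270, 930, 328 and 297 cells (unsorted 1 and 2, sorted 1 and 2), with medians of 33395 to 63793.5 transcripts, counted as unique molecular identifiers (UMIs), per cell. Only 1 cell barcode occurred in more than 1 library. Marker genes matched the names: the 3 nodose markers summed to between 14.7 and 15.9 UMIs per 10000 in nodose neurons and between 0.452 and 0.694 in jugular neurons, and the 3 jugular markers to between 4.21 and 4.60 in jugular and between 0.0569 and 0.0701 in nodose neurons. Levels below are UMIs per 10000 UMIs of the cell, averaged over the cells of a cluster in a library, and a library is the replicate. Each molecule gives 1 UMI from its 3′ end whatever its length, so no division by transcript length was made when genes are set side by side.

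The 5 genes together gave between 1913 and 12379 UMIs each over all cells. Kcnk3 had the most, with 12379 UMIs in 986 cells (54.0%), although Hcn3 with 3429 UMIs was found in more cells, 1352 (74.1%). Kcnk2 gave 9198 UMIs in 1361 cells (74.6%), Hcn2 3856 UMIs in 1165 cells (63.8%) and Kcnk1 1913 UMIs in 784 cells (43.0%). Of 11 other two-pore channel genes on a list of relatives, 7 were in the table. Among them Kcnk18 (TRESK) gave 1069 UMIs and Kcnk10 (TREK-2) 653, and the other 5 gave between 47 and 437.

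In the mouse genome (GRCm38, GENCODE M21 annotation) the genes lie on 5 chromosomes. Hcn2 spans chr10:79716634-79736108 on the plus strand and overlaps no other annotated gene. Hcn3 spans chr3:89146074-89160196 on the minus strand, and its 3′ end overlaps that of Pklr. Kcnk1 spans chr8:125995170-126030685 (plus), with the antisense gene Gm45875 over its 3′ end, and Kcnk3 spans chr5:30588170-30625271 (plus), with Gm9899 over its start. Kcnk2 spans chr1:189207930-189402273 (minus) and 4 annotated genes lie over it, of which the antisense A430027H14Rik is itself in the table. Whether the counting used strand is not given in the sources used here, so UMIs from genes on opposite strands could not be separated, and these libraries read the 3′ end, where Hcn3 and Kcnk1 are overlapped. Of the genes over Kcnk2, 2900042K21Rik lies on the same strand near its 3′ end, where strand would not separate the UMIs.

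Kcnk3, the acid-sensitive leak channel, differed most between neuron types. Its level was 7.23, 9.96, 5.02 and 8.51 in NG13 in unsorted 1, unsorted 2, sorted 1 and sorted 2, a mean of 7.68 ± 2.09 (SD, n = 4 libraries). NG15 followed with 6.77, 5.58, 3.10 and 2.63 (4.52 ± 1.98). NG14 stood at 2.13 ± 0.623, the jugular type JG4 at 1.81 ± 0.346, NG16 at 1.37 ± 0.475 and NG1 at 1.03 ± 0.494. These 6 of 24 neuron types were the ones with a mean above 1, and 11 of the 24 lay below 0.1. The highest type was 60.1 times the median neuron type, against 16.3 times for Kcnk1, 4.55 for Hcn2, 2.60 for Kcnk2 and 1.72 for Hcn3. No neighbours in the order of the 27 clusters were apart by more than the sum of their SDs. NG13 and NG15 together held 62.2% of all Kcnk3 UMIs in 13.3% of the cells.

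At the level of cells, a Kcnk3 UMI was found in 95 of 95 NG13 cells (100%, exact 95% interval 96.2 to 100%) and in 99.2% of NG14 cells. In endothelial cells, taken as a type that should lack these neuronal genes, the share was 9.80%, at a median of 9670 UMIs per cell against 43992 in NG13. With every cell thinned to 10000 UMIs the share was 98.9% in NG13, 84.0% in NG14, 81.1% in NG15 and 5.00% in the 20 of 51 endothelial cells that were deep enough. NG8, NG11 and NG18, with 15.3%, 16.3% and 17.6% before thinning, had 4.92%, 4.85% and 1.35% after it. These lay at or below the endothelial share, but that share rests on 20 cells and gives only a rough line for background. Intervals here cover counting error only.

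**Figure D1:**
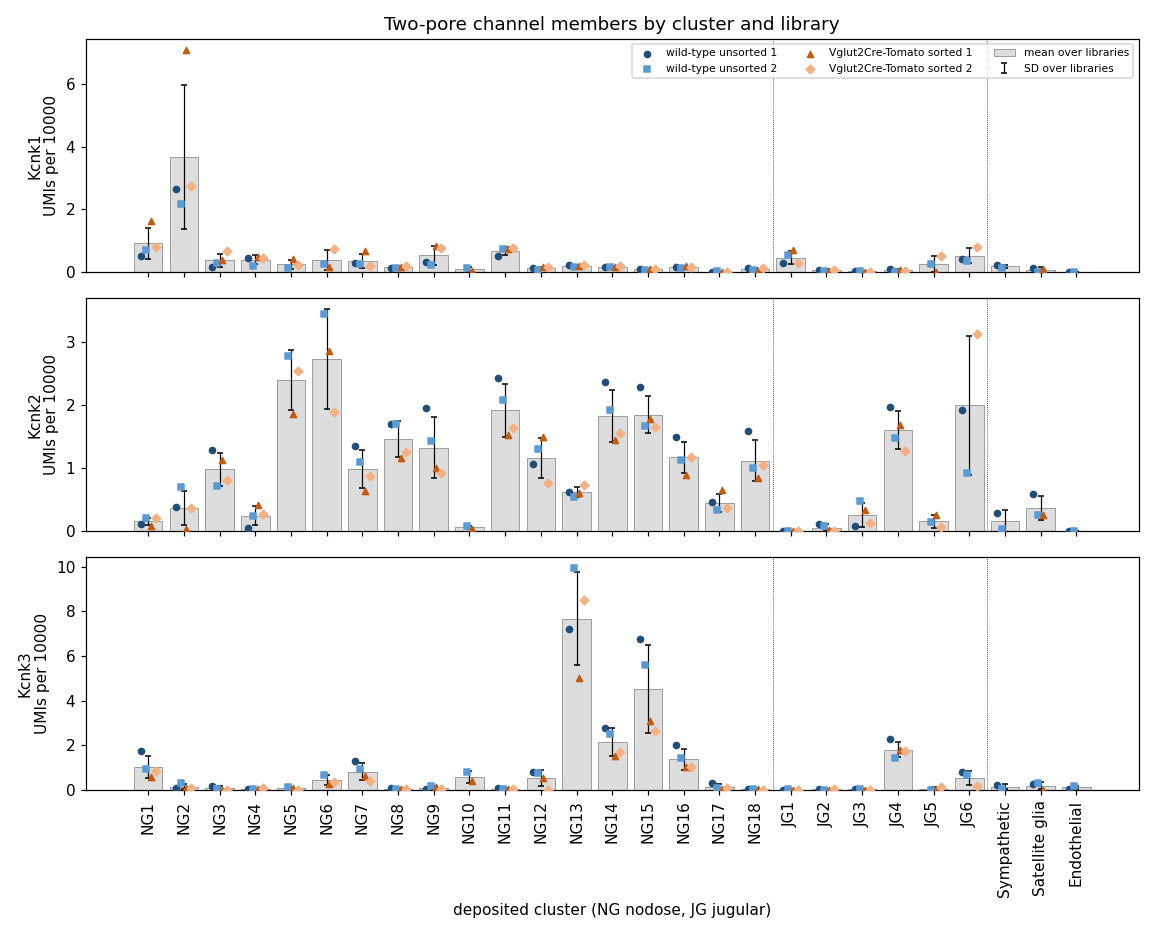
Levels (UMIs per 10000) of Kcnk1, Kcnk2 and Kcnk3 in the 27 deposited clusters: grey bars are means and black lines SDs over libraries with at least 3 cells, and coloured points are the 4 libraries. Kcnk3 stands highest in NG13 and NG15, Kcnk1 in NG2, while Kcnk2 is above 1 in 12 of the 24 neuron types.

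Each neuron type with at least 10 cells in at least 2 libraries, 14 of the 24, was set against the rest of the neurons of the same ganglion, library by library (limma on log2(level + 0.1), Benjamini-Hochberg over all genes, called at an adjusted p under 0.05 and a log2 fold of at least 1). The clusters were drawn by the authors from these same transcripts, so a small p here says that the difference recurs from library to library, and it cannot serve as separate support for the type. Of 70 pairs of member and type, 23 were called (32.9%), 4 higher (5.71%) and 19 lower (27.1%). Over all genes, 5.99% of gene and type pairs were called, 2% higher and 3.99% lower. The counts depend on the pseudocount, with 2 higher and 7 lower at 1 and 2 higher and 11 lower at 0.5, and the calls of Kcnk3 in NG13 and NG15 were made at each. No call of Kcnk1 or Hcn2 was made at 1 or 0.5. Kcnk3 accounted for 11 of the 23 calls, Kcnk1 for 6, Kcnk2 for 5 and Hcn2 for 1, and Hcn3 for none. Type by type, the share of all genes called was 3.64% in NG14, 3.81% in NG16, 3.97% in NG9, 4.31% in NG18, 4.61% in NG8, 4.71% in NG15, 5.28% in NG7, 5.67% in NG13, 6.11% in NG17 and 6.21% in NG11. It was 7.36% in NG4, 8.79% in NG12, 9.18% in NG1 and 10.2% in JG2, which had 4 of the 23 calls.

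Kcnk3 was called higher in NG13, at 8.56 ± 1.36 against 1.27 ± 0.466 in the other nodose neurons (n = 3 libraries, log2 fold 2.71, SE 0.19, adjusted p = 3.1e-06), and in NG15 (4.52 ± 1.98 against 1.28 ± 0.513, n = 4 libraries, log2 fold 1.72, SE 0.10). In both types the gene was higher in every library that entered the fit. It was called lower in 9 types, each set against neurons that include its highest types (NG13 and NG15, or JG4 for JG2). The lowest were NG18 (log2 fold -3.61), NG8 (-3.60), NG11 (-3.55), NG4 (-3.45), NG17 (-3.17) and NG9 (-2.86), all with means under 0.12 and below the other nodose neurons in every library of the fit. JG2 was at 0.0149 ± 0.00635 against 0.577 ± 0.168 in the other jugular neurons (log2 fold -2.53). The smaller calls were NG12 at -1.41 and NG7 at -1.04, types whose means (0.512 and 0.814) lay above the median neuron type (0.128). The NG7 call ended without the library block (adjusted p = 0.131, the highest among its alternatives, whose lowest was 9.5e-07), without sorted 2 (-0.92) and with at least 5 cells a profile (-0.96). It also ended with a pseudocount of 0.5 or 1 (smallest log2 fold -0.55). The calls of Kcnk3 in NG12 (-0.86) and JG2 (-0.63) ended with a pseudocount of 1. The NG15 cells of unsorted 1 also carried fibroblast markers: all 5 markers of that list were found and summed to 50.1 UMIs per 10000 there, against 4.15 (4 of 5 found), 0.0191 (2 of 5) and 0.0425 (1 of 5) in unsorted 2, sorted 1 and sorted 2. The part of these markers in the Kcnk3 value was not tested. Without unsorted 1 its log2 fold in NG15 was 1.66.

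Kcnk2, the mechanically and thermally gated leak channel, was the most widely spread of the 3. Its highest types were NG6 at 2.73 ± 0.793 (n = 3 libraries), NG5 at 2.39 ± 0.478 (n = 3), JG6 at 1.99 ± 1.11 (n = 3) and NG11 at 1.91 ± 0.416 (n = 4). From NG6 down to NG18, 12 of 24 neuron types had means above 1, and only 1 pair of neighbours in the whole order, NG3 (0.977 ± 0.266) above NG13 (0.618 ± 0.0766), was separated by more than the sum of the SDs. No type was called higher for Kcnk2 at this number of cells. NG11, NG14 and NG15 were each higher than the other nodose neurons in 4 of 4 libraries with log2 folds between 0.55 and 0.57, short of the fold of 1.

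Kcnk2 was called lower in 5 types: JG2 (0.0301 ± 0.0390 against 0.860 ± 0.242, log2 fold -2.89), NG1 (0.158 ± 0.0630 against 1.44 ± 0.160, -2.59), NG4 (-1.99), NG17 (-1.44) and NG13 (-1.04). In each of these it lay below the other neurons of the ganglion in every library of the fit. The NG13 value passed the fold of 1 by little and did not without unsorted 1 (-0.95), without unsorted 2 (-0.97) or with median centring (-0.91). In JG1 no Kcnk2 UMI was found in any of 24 cells, which allows up to 12.5% of cells with a UMI. With a floor of 3 UMIs over the group (0.0275 per 10000), the other jugular neurons were at least 19.9-fold higher. NG13, the highest type for Kcnk3, thus held less Kcnk2 than the other nodose neurons, by a log2 fold near -1. NG14 and NG15 held both, and JG2 held little of either.

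Kcnk1, which encodes TWIK-1, was concentrated in NG2. Its NG2 level was 2.65, 2.16, 7.10 and 2.75 in unsorted 1, unsorted 2, sorted 1 and sorted 2 (3.66 ± 2.30, n = 4 libraries), and the lowest of these lay above the level in every library of every other type. NG2 is 30 cells, 1.64% of all cells, and held 19.4% of Kcnk1 UMIs. All 30 had a Kcnk1 UMI (100%, exact 95% interval 88.4 to 100%), and 92.9% of the 28 cells deep enough had one after thinning. No Kcnk1 UMI was found in 51 endothelial cells, which allows up to 5.88%. NG1 (0.914 ± 0.496), NG11 (0.677 ± 0.123) and NG9 (0.531 ± 0.304) came next, and at the other end NG17 had 6 UMIs in 110 cells (0.00705 ± 0.00578). Only NG17 and the endothelial cells, the last pair in the order, were apart by more than the sum of their SDs. Markers of satellite glia summed to 45.4, 29.1, 49.1 and 3.76 in the NG2 cells of the 4 libraries, all 5 found in the first 3. Their part in the NG2 level of Kcnk1 was not tested.

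In the fits Kcnk1 was called higher in NG1 (log2 fold 1.12, SE 0.20, 2 of 2 libraries) and NG11 (1.05, SE 0.12, 4 of 4 libraries), and lower in NG17 (-1.99), NG18 (-1.33), NG15 (-1.22) and JG2 (-1.05). The NG11 call rested on unsorted 2 (0.90 without it) and also ended without the 5% of cells with most UMIs (0.995). The JG2 call ended without sorted 2 (-0.90), with median centring (-0.86) and with at least 5 cells a profile (-0.97), and the NG18 call without sorted 1 (-0.99). With limma-voom NG9 was also called higher (1.10 against 0.64 here) and NG12 lower (-2.01 against -0.94). The median log2 fold of all genes was -0.26 in NG12 and -0.11 in NG13. Centring each profile on its median ended 2 of the 23 calls, Kcnk1 in JG2 and Kcnk2 in NG13.

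**Figure D2:**
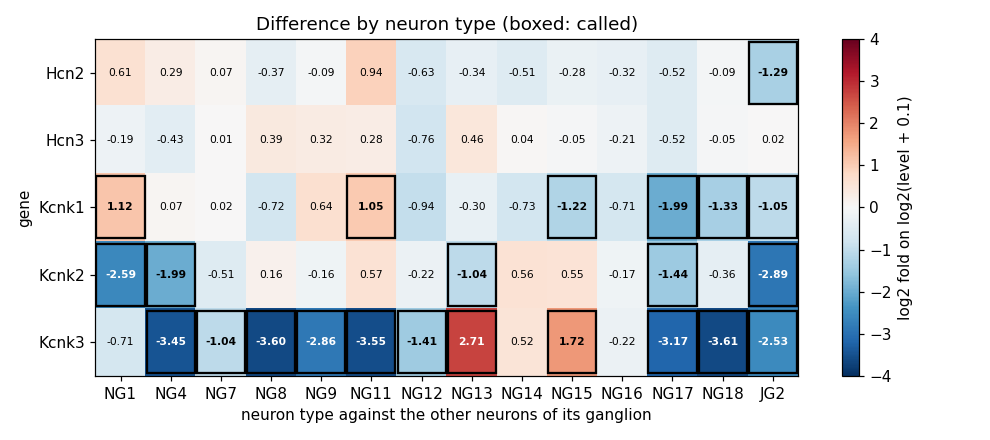
Log2 fold (on log2(level + 0.1)) of each gene in each of the 14 tested neuron types against the other neurons of its ganglion, colour running from blue (lower) to red (higher); boxed values were called. The Kcnk3 row holds 11 of the 23 boxes and the Hcn3 row none.

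Types with fewer cells could be fitted with at least 5 cells a profile, which added 9 types. In NG2, over 2 libraries, Kcnk1 was called at a log2 fold of 3.67 (SE 0.28), Hcn2 at 1.86, Kcnk2 at -2.10 and Kcnk3 at -2.51, in a type where 13.7% of all genes were called. In JG4 Kcnk3 was called at 3.12 (SE 0.21) and Kcnk2 at 1.56, with Kcnk1 lower at -1.17, against 7.04% of all genes. JG6 had Kcnk2 at 1.62 and Kcnk1 at 1.39 (10.3% of all genes called). JG1 was lower for Kcnk3 (-2.69) and higher for Hcn2 (1.03), at 11.2%, with Kcnk2 at 0 UMIs as above. JG3, at 6.95%, was lower for all members other than Hcn3, between -1.12 for Hcn2 and -2.49 for Kcnk3. Kcnk3 was lower in NG3 (-3.75), NG5 (-3.24), NG6 (-1.44) and JG5 (-1.99), where 9.17%, 8.4%, 6.69% and 9.79% of all genes were called, and JG5 was lower for Kcnk2 as well (-2.26). The jugular types thus split into JG4 with Kcnk3 and Kcnk2, JG6 with Kcnk2 and Kcnk1, and JG1, JG2, JG3 and JG5, called lower for both Kcnk2 and Kcnk3. The fits for JG1, JG2, JG3 and JG5 had JG4 among the other jugular neurons, with 366 Kcnk3 and 340 Kcnk2 UMIs. JG6 held 33 and 136.

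Which of the 3 leak channel genes had the highest mean level (UMIs per 10000) also varied by type. Kcnk2 led in 12 of 24 neuron types, in 11 of them in every library, Kcnk3 in 7 (4 in every library) and Kcnk1 in 5 (2 in every library). NG2 and JG1 were the types led by Kcnk1 in every library, and NG10, NG13, NG14 and NG15 those led by Kcnk3. The sum of the 3 ran from 0.125 in JG2 to 8.50 in NG13. JG2 was not without two-pore channels: Kcnk12 (THIK-2) was called higher there, at 0.714 against 0.186 (log2 fold 1.49), and so was Kcnk13 (THIK-1), at 0.295 against 0.0913 (1.03). NG17 and NG18, both low for Kcnk1 and Kcnk3, were the types called higher for Kcnk18, whose TRESK channel is a background potassium channel of pain-sensing neurons, at 0.530 against 0.0723 (1.84) and 0.443 against 0.0859 (1.45).

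Hcn2, the cyclic AMP-sensitive HCN channel, was highest in NG2, at 0.939, 0.854, 3.39 and 3.14 in unsorted 1, unsorted 2, sorted 1 and sorted 2 (2.08 ± 1.37). The 2 sorted libraries were both far above the 2 unsorted ones. NG1 (1.26 ± 0.809), JG5 (1.21 ± 0.963, n = 3 libraries) and NG11 (1.09 ± 0.459) followed, and no pair of neighbours in the order of the 27 clusters was apart by more than the sum of their SDs. JG2 was the lowest neuron type (0.147 ± 0.0560) and the sole called one among the 14 tested, at 0.147 ± 0.0685 against 0.531 ± 0.266 in the 3 libraries of the fit (log2 fold -1.29, SE 0.20). This call ended with a pseudocount of 0.5 or 1, with a smallest log2 fold of -0.40. NG11 was higher in 4 of 4 libraries at a log2 fold of 0.94 (SE 0.10), and passed the fold of 1 with limma-voom on the UMIs (1.01) and without unsorted 2 (1.01).

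Hcn3, which encodes a slowly opening HCN channel with little response to cyclic AMP, was the most even gene of the 5. Its neuron type means ran from 0.221 ± 0.133 in JG5 (n = 3 libraries) to 0.628 ± 0.137 in NG9, and NG13 (0.627 ± 0.122) and NG8 (0.620 ± 0.210) did not differ from NG9 beyond their spread. No neighbours in its order were apart. Among the 14 types with at least 10 cells a profile, its largest differences were in NG12 (log2 fold -0.76, adjusted p = 0.0326) and NG17 (-0.52, adjusted p = 0.0113) on the low side, and in NG13 (0.46, adjusted p = 0.0333) and NG8 (0.39, adjusted p = 0.0281) on the high side. In sympathetic neurons Hcn3 was 0.594 and 0.575 in the 2 unsorted libraries, within the range of the highest nodose types, with a UMI in 19 of 19 cells. The other 4 genes were each below their nodose mean there.

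Genes of cyclic AMP synthesis and breakdown and of the sodium leak channel complex were listed beside the channels. In JG2, 6 of 13 tested genes of cyclic AMP synthesis and breakdown were called lower and 1 higher. The phosphodiesterase genes Pde1c (0.0225 against 0.887, log2 fold -3.00) and Pde8b (-2.03) and the cyclase gene Adcy2 (-1.85) were among the lower ones, and so were Unc80 (-1.81) and Fam155a (-1.58), 2 of 3 tested sodium leak genes. In NG13, Pde1a was called higher (0.604 against 0.117, log2 fold 1.70) and 3 cyclic AMP genes lower, among them Adcy5 (-1.84) and Pde2a (-1.75). In NG18, with 2 calls of the 5 genes, none of the 13 tested cyclic AMP genes and none of the 4 sodium leak genes was called. In NG14 and NG16, with no call of the 5, 2 and 1 cyclic AMP genes were called lower. No sodium leak gene was called higher in any of the 14 types.

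**Figure D3:**
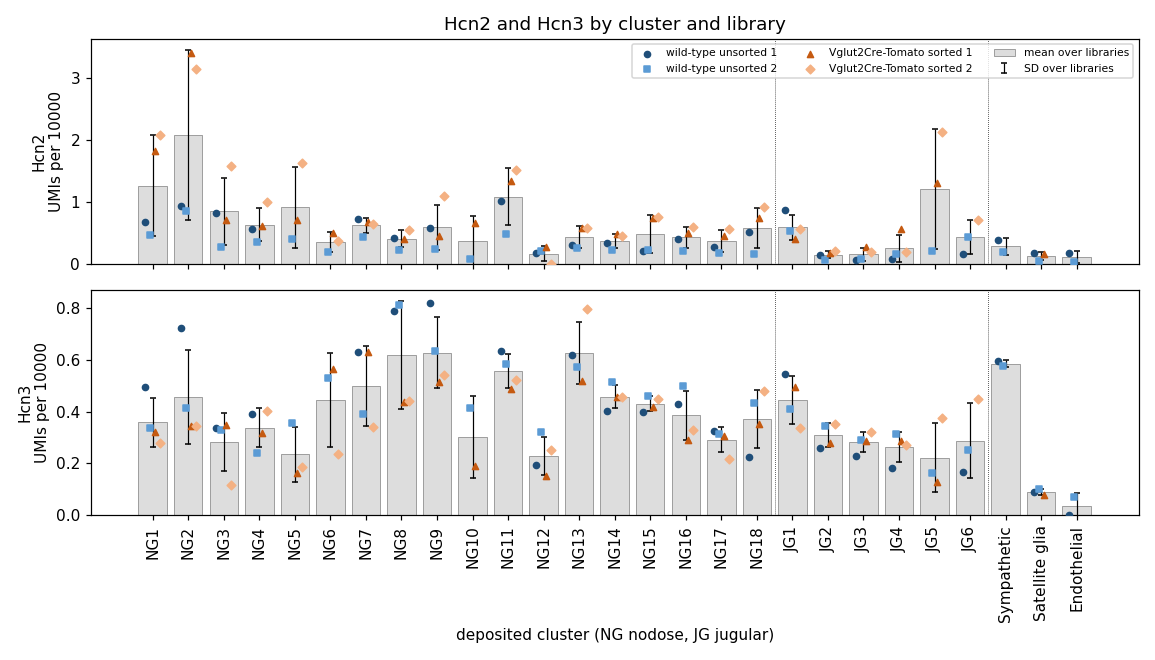
Levels (UMIs per 10000) of Hcn2 and Hcn3 in the 27 clusters, with bars for means, lines for SDs and coloured points for the 4 libraries. Hcn2 is high in NG1, NG2, JG5 and NG11 with sorted libraries above unsorted ones, and Hcn3 varies little between neuron types.

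Across the 24 neuron types Hcn2 and Kcnk1 had the most similar patterns among the 5 genes. Pearson's r of log2(mean + 0.1) was 0.79 (Spearman's rho 0.76), given as a description over points that share the 4 libraries. The other 9 pairs lay between -0.17 (Hcn2 and Kcnk3) and 0.34 (Hcn3 and Kcnk1). Among 6153 genes with a mean of at least 0.5 in some type, those most like Hcn2 were Cables2 (r = 0.93), Aak1 (0.92), a kinase of clathrin coats, and Synj1 (0.91), a phosphatase of synaptic vesicle recycling. All 3 peaked in NG2. Among the closest to Kcnk1 were Sdr39u1 (0.86) and Acsl6 (0.86), also highest in NG2. Kcnk3 was closest to Tmem8b (0.83), Lox (0.77), which encodes lysyl oxidase, and Chrnb4 (0.76), a nicotinic receptor subunit, which peaked in NG15 or NG13. Lox peaked in NG15, where the cells of unsorted 1 carried fibroblast markers, and their part in its level was not tested. The nearest to Hcn3 were the chloride transporter gene Slc12a7 (0.87), the amino acid transporter gene Slc7a8 (0.85) and Zbtb7c (0.79), and to Kcnk2 Peg3 (0.78), Zfp536 (0.77) and Grb10 (0.76).

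Since Hcn2 and Kcnk1 shared their leading types, their promoter windows are shown side by side, 300 bases around the annotated start, 5′ to 3′ on the gene's strand (RefSeq, GRCm38.p6). Capitals mark GGGCGG or its reverse complement CCGCCC, a GC box. The Hcn2 window is chr10:79716384-79716683 and the Kcnk1 window is chr8:125994852-125995151, both on the plus strand. The Hcn2 window spans the GENCODE start given above (79716634), whereas the Kcnk1 window ends upstream of its GENCODE start (125995170).
Hcn2: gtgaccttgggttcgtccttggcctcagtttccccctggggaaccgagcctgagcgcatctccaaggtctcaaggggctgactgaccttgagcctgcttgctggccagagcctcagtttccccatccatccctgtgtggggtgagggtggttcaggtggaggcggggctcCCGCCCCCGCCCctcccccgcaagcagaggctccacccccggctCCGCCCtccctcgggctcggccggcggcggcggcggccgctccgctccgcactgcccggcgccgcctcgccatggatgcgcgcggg
Kcnk1: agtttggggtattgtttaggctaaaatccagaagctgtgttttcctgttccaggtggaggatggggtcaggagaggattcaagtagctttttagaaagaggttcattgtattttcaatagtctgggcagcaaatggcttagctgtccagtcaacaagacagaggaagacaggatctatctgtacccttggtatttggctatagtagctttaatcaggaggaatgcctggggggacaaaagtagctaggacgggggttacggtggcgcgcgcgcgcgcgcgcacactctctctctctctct
The Hcn2 window is 72.3% G or C with 26 CpG dinucleotides and 3 GC boxes, and the Kcnk1 window is 49.0% G or C with 10 CpG dinucleotides and no GC box. Among 32851 promoter windows of the same length the median was 52.7% G or C and 7 CpG dinucleotides, and 35.7% held a GC box on either strand. The motifs TATAAA, TGACGTCA and CACGTG, searched on both strands and found in 13.6%, 1.79% and 7.15% of all windows, had no match in either. These are matches of letters, and the windows of the genes with like patterns differed in composition. For Kcnk2 4 windows were listed, with 43.0 to 74.7% G or C, and Hcn3 and Kcnk3 are named without one.

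Nodose and jugular neurons, which derive from the placode and the neural crest respectively, were compared within each of the 4 libraries. All 5 genes had a higher mean in nodose neurons in 4 of 4 libraries, and 1 of 5 was called (at any fold, all 5 had an adjusted p under 0.05, as did 45.1% of genes), where 8.37% of 8833 genes were called and 4.85% were called higher. The share of all genes with a higher nodose mean in 4 of 4 libraries was not counted. Kcnk3 was 2.22, 2.01, 1.09 and 1.10 in nodose and 0.732, 0.558, 0.258 and 0.366 in jugular neurons (unsorted 1, unsorted 2, sorted 1, sorted 2). The 2 groups did not overlap, and the log2 fold was 1.57 (SE 0.08, adjusted p = 1.7e-07). With every type weighted equally, so that large types such as NG14 count no more than small ones, it was 1.19. On log2(level + 1) it was 0.80 and no longer past the fold of 1.

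Kcnk2 was 1.47, 1.29, 1.17 and 1.24 in nodose against 0.846, 0.678, 0.318 and 0.814 in jugular neurons, also without overlap. Its log2 fold of 0.93 (SE 0.14, adjusted p = 0.000357) was short of 1, and it was called without sorted 2 (1.05) and with limma-voom (1.34). The other 3 had smaller differences: 0.63 for Kcnk1 (SE 0.15, adjusted p = 0.00519), 0.50 for Hcn2 (SE 0.09, adjusted p = 0.000999) and 0.46 for Hcn3 (SE 0.10, adjusted p = 0.00398). Across the 5 the median log2 fold was 0.63, beside 0.03 over all genes. Whether the nodose to jugular difference itself differed between sorted and unsorted libraries was tested as an interaction. None of the 5 passed (adjusted p between 0.539 and 0.967), and 0.113% of all genes did.

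Related channels on the lists moved in both directions between the ganglia. Of the 4 genes of the sodium leak channel complex, which carries the depolarizing counterpart of potassium leak, 2 of 4 were called higher in nodose neurons: Unc80 at 1.68 against 0.458 (log2 fold 1.75) and Fam155a at 0.680 against 0.152 (1.64). Of 3 inward rectifier genes tested, Kcnj3 (GIRK1) was called higher (1.04) and none lower. Of 3 other two-pore genes tested, Kcnk12 (-1.79) and Kcnk13 (-1.19) were called lower and none higher. Among 3 tested genes of HCN partners Nedd4l, a ubiquitin ligase, was called lower (-1.33), and among 14 genes of cyclic AMP synthesis and breakdown Pde1c, a phosphodiesterase, was called lower (-1.87) and none higher.

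All 5 genes were called higher in nodose and jugular neurons than in the endothelial cells and satellite glia of these 2 wild-type libraries, unsorted 1 and 2. The background there was wide, with 41.9% of 9807 genes called and 25.8% called higher. Kcnk3 was 1.99 and 1.78 in neurons against 0.150 and 0.222 in the other cells (log2 fold 2.81, SE 0.20, adjusted p = 1.9e-07). The folds of the rest were 2.22 for Kcnk2, 1.74 for Hcn3, 1.28 for Kcnk1 and 1.10 for Hcn2, beside a median of 0.26 over all genes. Relative to that shift, with profiles centred on their medians, Hcn2 was at 0.89 and no longer called, and the other 4 stayed past the fold of 1. On log2(level + 1) Kcnk3 alone of the 5 stayed past it, with Kcnk2 at 0.92 and Hcn2, Hcn3 and Kcnk1 between 0.24 and 0.44. In unsorted 1 alone, a value with no test, Hcn2 was at 0.92 and Kcnk1 at 0.96. Neurons and non-neuronal cells do not overlap for any of the 5 in the pooled profiles of these 2 libraries. The share of all genes without overlap was not counted.

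Among the non-neuronal cells, satellite glia held Kcnk2 at 0.586, 0.248 and 0.247 in unsorted 1, unsorted 2 and sorted 1. These levels rest on 14, 6 and 1 UMIs, and sorted 1 held only 4 of these cells. A Kcnk2 UMI was found in 29.4% of 51 satellite glia, while no UMI was found in 51 endothelial cells of like depth. For Kcnk2 the neurons of the unsorted libraries were at least 19.5-fold above endothelial cells (floor of 3 UMIs over the group, 0.0597 per 10000), and for Kcnk1 at least 3.18-fold. Of 6 tested inward rectifier genes, 4 were called lower in neurons, among them Kcnj10, the potassium channel of satellite glia and one of the glial markers used here (0.0808 against 1.63), and Kcnj8 (log2 fold -1.97). The other 2 were called higher, among them Kcnj3, with no UMI in the glia and endothelial cells of these libraries. All 4 sodium leak genes were called higher in neurons, among them Fam155a (0.676 against 0.0155) and Nalcn, the channel itself (0.470 against 0.0117). Of the other two-pore genes 1 was tested, and it, Kcnk7, was called lower (-1.63). Of the 4 tested HCN partners, Nedd4l and Pex5l (TRIP8b) were called higher and Flna lower, and of 16 cyclic AMP genes 5 were called higher and 2 lower, among the latter the adenylyl cyclase gene Adcy4 (-1.68).

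**Figure D4:**
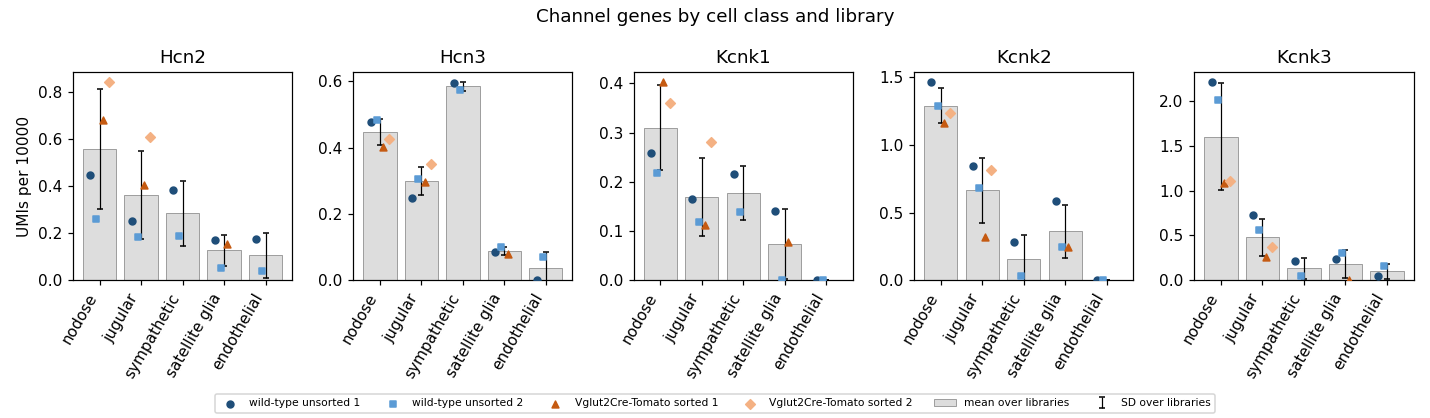
Levels (UMIs per 10000) of the 5 genes in 5 cell classes (3 of neurons, then satellite glia and endothelial cells), with bars for means, lines for SDs and points for libraries with at least 3 cells. All 5 genes are higher in nodose than in jugular neurons in each library, and Hcn3 in sympathetic neurons is above its nodose level.

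Between sorted and unsorted neurons none of the 5 genes was called by limma, where 1.93% of 8912 genes were called, but 3 of 5 had an adjusted p under 0.05, where 26.4% of all genes did (unadjusted, 3534 genes had p under 0.05). Hcn2 was higher in the sorted libraries, at 0.661 and 0.806 against 0.417 and 0.250 in unsorted 1 and 2 (log2 fold 0.97, SE 0.17, adjusted p = 0.00182). The groups did not overlap. The value passed the fold of 1 without unsorted 1 (1.25), without sorted 1 (1.09) and with limma-voom (1.18), and was 0.68 without unsorted 2. Kcnk1 was also higher, at 0.381 and 0.347 against 0.244 and 0.202 (log2 fold 0.52, adjusted p = 0.00665). Kcnk3 was lower, at 1.03 and 0.979 against 1.99 and 1.78 (log2 fold -0.85, SE 0.13, adjusted p = 0.000840). Kcnk2 (-0.16, adjusted p = 0.385) and Hcn3 (-0.12, adjusted p = 0.449) did not pass the test.

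The same directions were seen inside the neuron types. These types share the same 4 libraries, so they give no separate support, and no such counts were made over all genes. Of 19 types with at least 3 cells in all 4 libraries, Hcn2 was higher in both sorted than in both unsorted libraries in 13 and lower in none. Kcnk3 was lower in both sorted libraries in 10 types and higher in none, and for Kcnk1 the counts were 6 higher and 1 lower, for Kcnk2 1 higher and 7 lower and for Hcn3 0 higher and 7 lower. With types weighted equally the log2 fold of Hcn2 was 0.99 and that of Kcnk3 -0.63. Markers of satellite glia moved with the preparation: the 5 of 5 markers summed to 22.0 and 20.1 UMIs per 10000 in neurons of the unsorted libraries, and to 2.26 (5 of 5 found) and 0.718 (3 of 5, with Sox10 and Kcnj10 at 0) in the sorted ones. Their part in these differences was not tested. Satellite glia themselves held Kcnk3 at 0.241, 0.299 and 0 in unsorted 1, unsorted 2 and sorted 1 (7, 6 and 0 UMIs). Their Hcn2 was at 0.172, 0.0528 and 0.156 (4, 1 and 2 UMIs), with only 4 satellite glia in sorted 1.

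**Figure D5:**
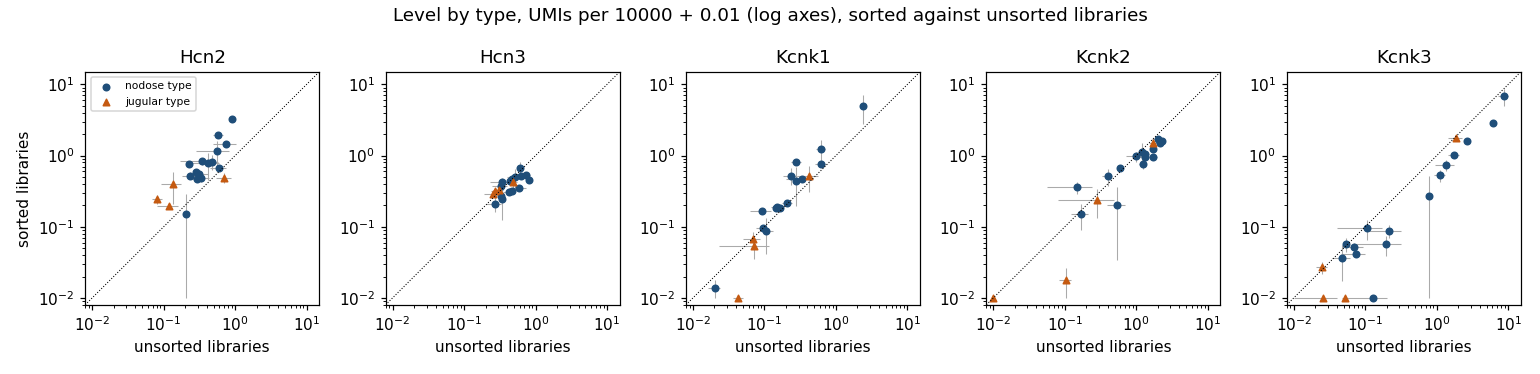
Level of each gene (UMIs per 10000, plus 0.01, log axes) in neuron types with all 4 libraries: mean of the unsorted libraries across and of the sorted libraries up, with grey lines spanning the 2 libraries of each preparation and a dotted line of equality. Most Hcn2 points lie above the line and most Kcnk3 points below it.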

How the data were processed

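Single cells of mouse vagal ganglia were captured in droplets and sequenced as 3′ libraries, per the labels' protocols. The submitters' processing notes name Cell Ranger 2.1.1, Seurat and mm10. The values are natural log, deposited by the authors as ln(1 + UMIs per 10000 UMIs of the cell), as the files' sums of 10000 show, and whole UMI counts were read back from the values the authors deposited (100% whole within 0.01). Cell types are the authors' deposited clusters. How cells were filtered and doublets treated is not given in the sources used here, and no doublet caller was run. The series states 1896 cells and the table held 1825. The deposited annotation also gives counts of genes and UMIs per cell and the mitochondrial fraction, per the file headers.

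Each library's mean per type or class was tested with limma 3.58.1 (R 4.3.3, trend, two-sided) on log2(level + 0.1), for profiles of at least 10 cells and genes with a mean above 0.1 in as many profiles as the smaller group holds. The library was a block, because both sides of a comparison came from the same library, except between sorted and unsorted libraries. Benjamini-Hochberg adjustment ran over all genes tested, and a call needed an adjusted p under 0.05 and a log2 fold of at least 1. Order and description used types with at least 3 cells in a library. Intervals of shares are 95% and exact (Clopper-Pearson). Where no UMI was found, up to 3 are allowed for. For thinned shares each cell was reduced to 10000 UMIs at random. On simulated data the script called 96.4% (nodose against jugular, 8707 genes), 87.5% (neurons against other cells, 9462), 95.7% (sorted against unsorted, 8806) and 97.3% (NG13, 8517) of genes changed by 1.5 on the log2 scale. Changed genes were drawn from those above a minimum mean level. All simulated libraries had the same base levels, with 1 fixed spread for every gene and no library effect. These shares therefore do not cover lower genes or genes that vary more between libraries.

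The genes, lists and tests were chosen with earlier results of these data known. Named are the 5 genes, every called gene of the list of other HCN and two-pore channels, up to 3 called genes of each other list with the smallest adjusted p, and for each of the 5 the 3 genes with the highest correlation over neuron types. Some genes this rule names are not reported here. The alternatives were other pseudocounts, filters, scaling, limma-voom, no block, other cell minimums, equal weights and each library left out.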

Additional observations from a re-analysis of the deposited data

Results flagged for a closer look

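Hcn3 in NG15 lay on different sides of the other nodose neurons in the unsorted and the sorted libraries. The level in NG15 minus that in the other nodose neurons was -0.0907 and -0.0252 UMIs per 10000 in unsorted 1 and unsorted 2, and 0.0151 and 0.0243 in sorted 1 and sorted 2. Both libraries of each preparation moved the same way, and the difference between the preparations was not tested. The NG15 levels themselves were 0.396, 0.460, 0.416 and 0.448 in the 4 libraries, and the log2 fold over all 4 was -0.05 (limma, adjusted p = 0.727).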

How the results depend on the processing

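In types, the alternatives were followed only for differences of the 5 genes with an adjusted p under 0.05 in the main run. None of these changed direction under any alternative run, and neither did any of the 5 genes in the other 3 comparisons. Differences in types at a higher adjusted p, such as Hcn3 in NG15, were not followed. The number of genes called moved with the pseudocount, the filter, the test and the cell minimum. For nodose against jugular neurons (739 genes called) it was 112 with a pseudocount of 1, 228 with 0.5, 380 with a filter at a mean above 0.5 and 1206 with limma-voom. For neurons against satellite glia and endothelial cells (4114) it was 836, 1572 and 2358 under the first 3 of these. For sorted against unsorted neurons (172) it was 36 and 60 with the 2 pseudocounts and 294 with limma-voom. Over the 14 types (7322) it was 942, 1978 and 11966, and 15102 with at least 5 cells a profile (23 types) and 2419 with at least 20 (6 types). The calls of the 5 genes in types (4 higher, 19 lower) were 2 and 7 with a pseudocount of 1, 2 and 11 with 0.5, 11 and 32 with at least 5 cells and 2 and 5 with at least 20.

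Leaving out each library in turn gave 727 to 776 genes between the ganglia, 160 to 267 between sorted and unsorted neurons (267 without unsorted 1), 5588 to 7435 over the types, and 3 to 4 higher and 14 to 18 lower calls of the 5 genes. For neurons against other cells this left 1 library and a value with no test, a setting chosen after seeing the data. Without the library block, which pairs the 2 sides of each comparison within a library, the counts were 730, 4083 and 6474, and the 5 genes had 4 higher and 18 lower calls. The call that ended was Kcnk3 in NG7. No paired analysis was possible between sorted and unsorted neurons because their replicate numbers come from different mice of different genotype. At these depths a level under 0.1 rests on few UMIs, and in small groups of shallow cells, such as satellite glia, higher levels do as well. Folds of low genes are understated by the pseudocount.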
